A study of Rattus norvegicus with 8 samples.

Results

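The cytosolic ribosomal proteins are the proteins that, with ribosomal RNA, build the large and the small subunit of the ribosome that translates messenger RNA in the cytosol. Their genes were taken from the array annotation by gene name, as Rpl or Rps followed by a number with an optional letter or l suffix, or Rplp0 to Rplp2 or Rpsa, without regard to case and without the ribosomal S6 kinases (Rps6k). The rule gave 83 of 25512 gene names and 182 of 46883 probes, with 51 genes of the large subunit and 32 of the small subunit. The names Rplp0, Rps6 and Rpl3, which mark the set, were all among them and were well above background on all 8 arrays.

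RNA from the liver of male Sprague Dawley rats (8 samples; an outbred laboratory strain) was hybridised to 1-colour Agilent arrays of 60-base probes. The high-fat group of 4 samples came from animals kept on a 60% fat diet for 12 weeks, and the control group of 4 from animals on a normal diet for 12 weeks. The labels give a weight of 180 to 200 g for both groups without saying when it was taken, and name no transgene or drug. Whether the 4 samples of a group are 4 animals is not spelled out there, so a p-value here rests on the differences among samples, which may be partly technical. The series asks which factors go with insulin resistance brought on by the high-fat diet.

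A single slide carried the 8 arrays, and each of its 2 rows held 2 high-fat and 2 control samples. The share of probes well above background was lowest on control replicate 1 (50.4%) and high-fat replicate 1 (56.3%), the 2 dimmest arrays, and reached 71.9% on control replicate 4. Precision was limited by the number of arrays. All 5 hepatocyte markers looked for (Alb, Apoa1, Ttr, Tf and Fgb) were measured, with a median normalized log2 intensity of 6.61, and their summed level ran from 8.82 to 9.16 on the high-fat arrays and from 8.78 to 9.28 on the control arrays on the log2 scale. In bulk liver, fewer cells of a type and less RNA per cell cannot be told apart.

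Ribosomal protein transcripts are among the most abundant messages of most cells, and their products are needed in equal amounts, since each ribosome holds a single copy of nearly every one. Many of these messages start with a run of pyrimidines, the 5′ terminal oligopyrimidine tract, through which the kinase mTOR controls their translation in response to nutrients and insulin. The liver makes most plasma proteins, and its ribosome content is known to follow feeding and fasting.

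Values are normalized log2 intensities, that is, the log2 background-corrected signal of a probe minus the 75th percentile of the probes detected on all arrays, so that 0 is the level of that percentile. A gene is given by its brightest tested probe, and a probe was tested where it was well above background on at least 4 arrays. All 83 genes and 176 of the 182 probes were tested, and 82 of the 83 representative probes were well above background on all 8 arrays. The exception, Rpl3l, passed on 7.

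The set was bright as a whole. Its median normalized log2 intensity was 4.46, which stood at percentile 98.3 of the tested genes at the median, and 75 of the 83 genes lay in the brightest 10%. The 5 brightest were Rpl41, the smallest ribosomal protein, at 6.63, the stalk protein Rplp0 at 6.13, the decoding-centre protein Rps23 at 5.72, Rpl37a at 5.72 and Rplp2 at 5.69. At the other end stood Rpl3l at -5.48, Rps27l at -4.04, Rpl15 at -3.35, Rpl10l at -2.26 and Rpl7l1 at 0.06, and 4 of these 5 carry the l suffix of a second copy. The brightness of a probe also depends on its sequence, so these figures describe probes and do not rank transcript amounts.

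**Figure D1:**
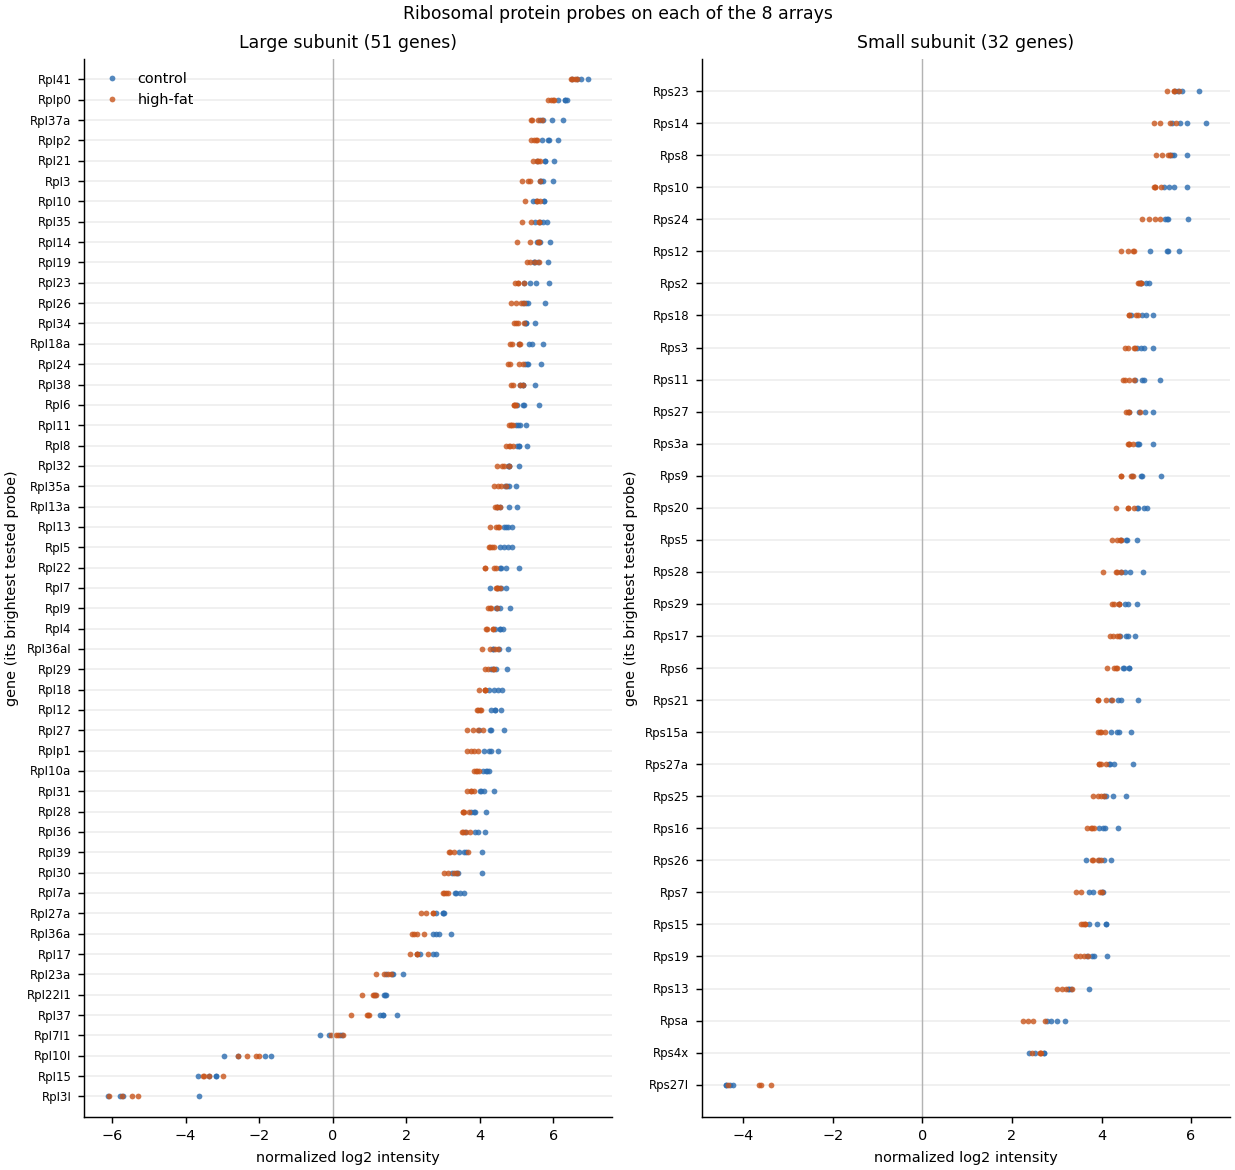
Normalized log2 intensity (x axis) of each of the 83 genes (y axis, by its brightest tested probe) on the 4 high-fat (orange) and the 4 control (blue) arrays, 1 point per array, for the large subunit (left) and the small subunit (right), ordered by level. Most genes sit above 2 with the orange points to the left of the blue ones, and Rpl3l, Rps27l, Rpl15 and Rpl10l sit below 0.

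On the high-fat diet nearly the whole set was measured at a slightly lower level. Of the 83 genes, 81 had a negative log2 change (high-fat minus control), against 49.4% of all tested genes. The median change was -0.29, a 1.23-fold higher level in control livers, with quartiles of -0.38 and -0.23 and a range from -0.82 to 0.58, while the median over all tested genes was 0.004. No single gene passed the threshold of an adjusted p under 0.05 by limma, where 0.877% of all tested genes did (0.527% lower and 0.35% higher), and the smallest adjusted p among the members was 0.061, for Rps12. At an unadjusted p under 0.05, 36 members were lower and 1 was higher, against 8.4% and 7.24% of all tested genes. In 37 members every high-fat value lay below every control value, and in 0 every one lay above. Among all tested genes these shares were 6.24% and 4.88%, and among the genes outside the set in the brightest 10%, where 75 of the members lie, 12.3% were lower without overlap.

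The shift was of like size in both subunits. The large subunit had 50 of 51 genes with a negative change and a median of -0.30, and the small subunit 31 of 32 with a median of -0.29. Of the genes with several tested probes, 61 of 65 had a negative change by every probe, and over all 176 tested probes 169 were negative with a median of -0.29, against 46.8% negative among all tested probes. In the brightest 10% of all tested genes, the genes that are not ribosomal proteins had a median change of -0.04, with 56.1% negative. The 75 ribosomal protein genes there had -0.30. In the next brightest 10% the other genes had a median of -0.01, with 53.1% negative. The brightest 10% spans levels from 1.70 to 7.20, and the genes compared within it were not matched in level.

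**Figure D2:**
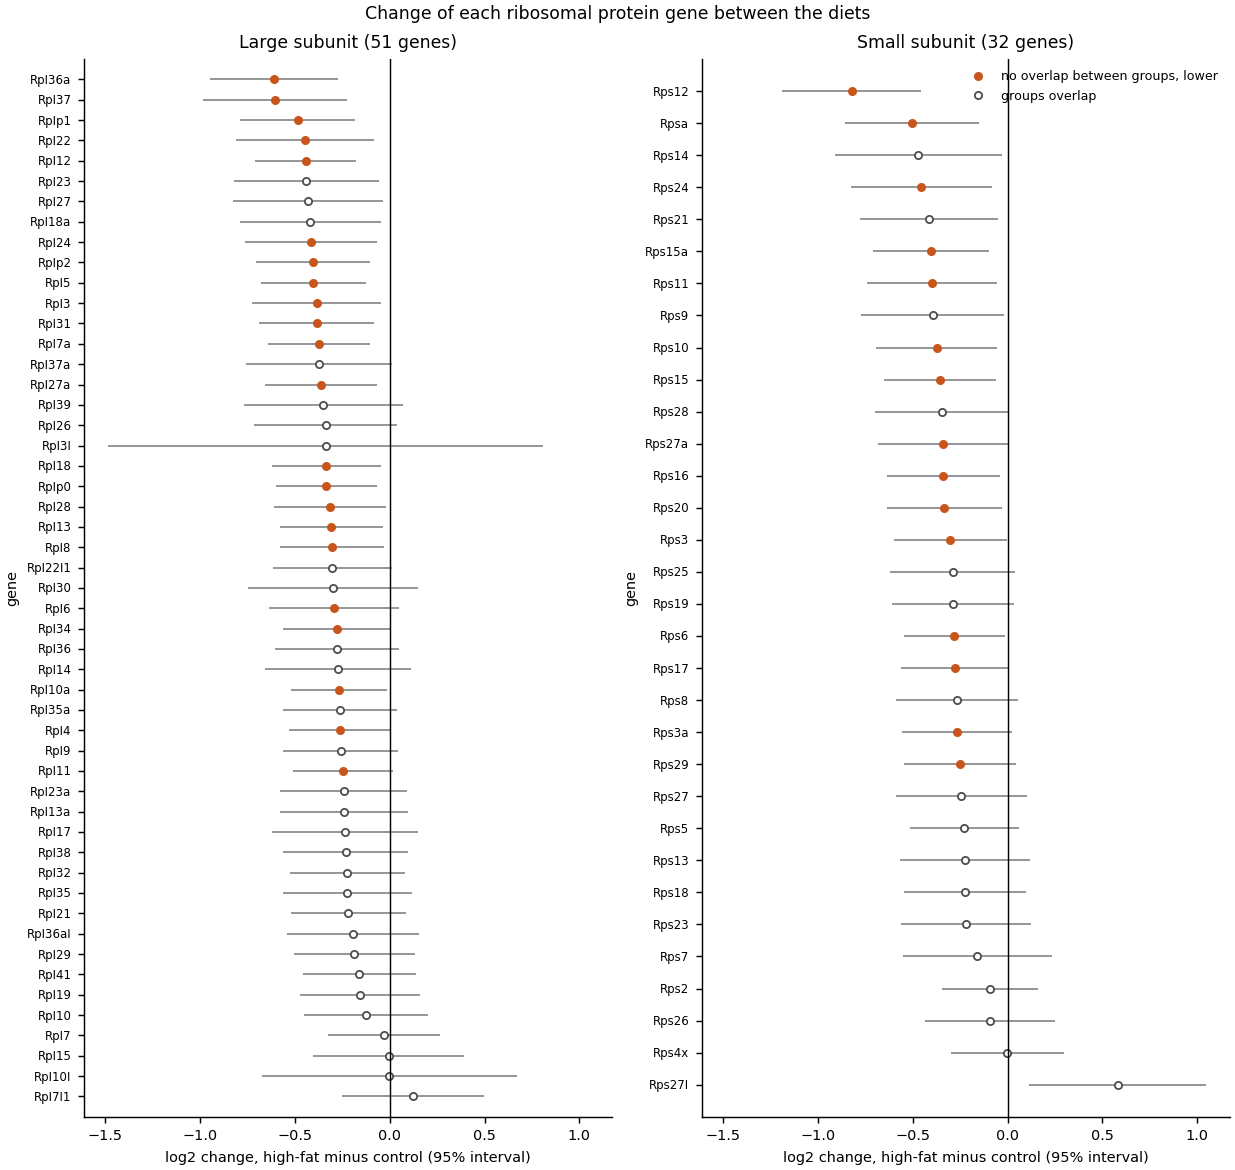
Log2 change, high-fat minus control, with its 95% interval (x axis) for each of the 83 genes (y axis), large subunit on the left and small subunit on the right. Filled orange points mark the 37 genes whose 4 high-fat values all lie below their 4 control values, and 81 of the 83 points lie left of 0.

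The median width of a gene's 95% interval was 0.65. The interval lay wholly below 0 in 36 of the 83 genes, the same 36 that were lower at an unadjusted p under 0.05. Among all tested genes this share was 8.4%. The members are measured on the same arrays and are not replicates of each other, and their count of negative signs carries no p here.

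Array by array, the set moved as a block. The median deviation of the 83 genes from their own means over the 8 arrays was -0.15, -0.06, -0.16 and -0.21 on high-fat replicates 1 to 4. It was 0.38, 0.11, 0.10 and 0.007 on control replicates 1 to 4. The groups did not overlap, control replicate 1 stood far above the other control arrays, and control replicate 4 stood closest to the high-fat arrays. On high-fat replicates 1 to 4 only 11, 24, 7 and 5 of the 83 genes lay above their own mean, and on control replicates 1 to 4 it was 80, 68, 70 and 44. For all tested genes the same median deviation stayed between -0.03 and 0.04 on every array.

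Control replicate 1 was also the array with the fewest probes well above background, and the part of its dimness in its high ribosomal protein values was not tested. Without it the median change of the set was -0.22, 77 of 83 genes were negative, and 15 in place of 36 were lower at an unadjusted p under 0.05, against 6.86% of all tested genes in that fit. Without both control replicate 1 and high-fat replicate 1 the median change was -0.21, with 77 negative genes and 12 at that p, against 7.15% of all tested genes. Without control replicate 2, high-fat replicate 3 or high-fat replicate 4 the count was 23, 16 and 16, against 7.32%, 7.10% and 6.66% of all tested genes, with 79 to 80 negative genes. Within slide row 1, which holds control replicate 1, the median change was -0.37, and within row 2 it was -0.23, with 78 of 83 genes negative in each.

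**Figure D3:**
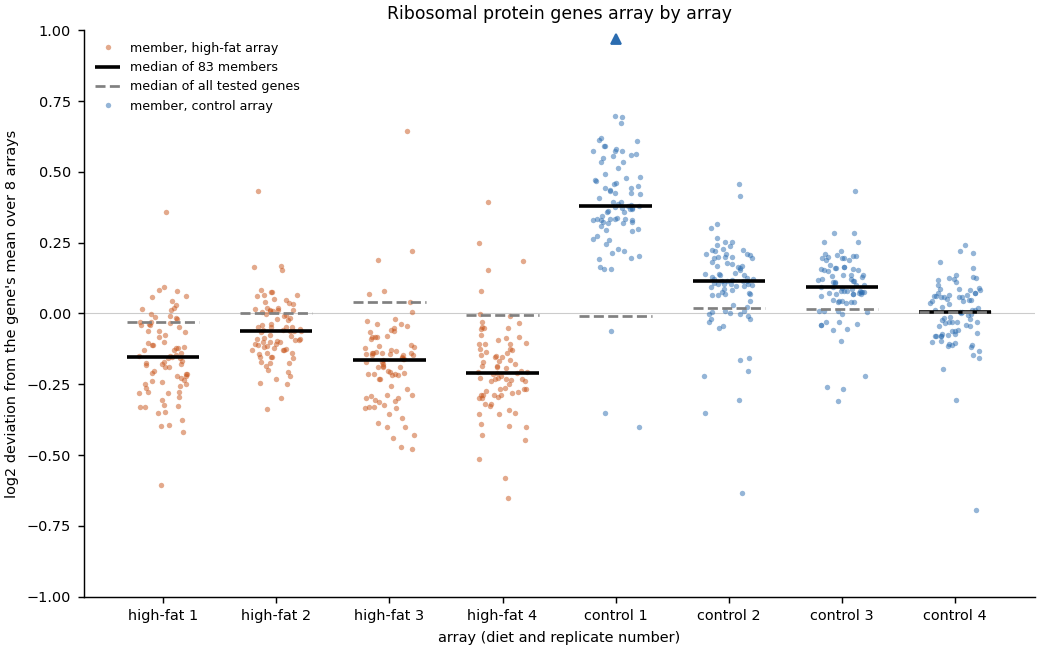
Log2 deviation of each of the 83 genes from its mean over the 8 arrays (y axis), by array (x axis), with the median of the set (black bar) and of all tested genes (dashed grey bar). The 4 set medians of the high-fat arrays lie between -0.21 and -0.06 and those of the control arrays between 0.007 and 0.38, and 1 point of control replicate 1 (Rpl3l) lies above the axis and is drawn as a triangle at its edge.

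The ribosomal stalk is a flexible arm of the large subunit that brings elongation factors to the ribosome. It is built on Rplp0, to which the acidic proteins Rplp1 and Rplp2 bind, and on Rpl12, which ties it to ribosomal RNA. The stalk proteins Rplp0, Rplp1 and Rplp2 end in a near-identical tail, and their probes cover it. The stretches of the 3 probes up to the stop codon are shown because they share a run of 10 bases, in capitals, on rn4 at chr12:42315829-42315854 (minus strand), chr8:66046260-66046319 (minus strand) and chr1:201637786-201637816 (plus strand).
Rplp0: ACATGGGATTcggtctcttcgactaa
Rplp1: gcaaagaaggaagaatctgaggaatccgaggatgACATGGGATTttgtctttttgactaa
Rplp2: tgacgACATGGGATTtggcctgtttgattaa

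All 4 stalk genes were lower on high-fat without overlap between the diets. So were 37 of the 83 members, 6.24% of all tested genes and 12.3% of the genes outside the set in the brightest 10%. Rplp0 read 5.87, 6.03, 6.0 and 5.95 on high-fat replicates 1 to 4 and 6.39, 6.33, 6.33 and 6.14 on control replicates 1 to 4. Its highest high-fat value thus lay just below its lowest control value, that of control replicate 4. The log2 change of Rplp0 was -0.33 (SE 0.12, 95% interval -0.60 to -0.07; adjusted p = 0.23 by limma), and its other tested probe gave -0.32.

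Rplp1 read 3.77, 3.96, 3.84 and 3.66 on the high-fat arrays and 4.50, 4.32, 4.25 and 4.11 on the control arrays. All high-fat values were under 4 and all control values above it. The change of Rplp1 was -0.49 (SE 0.13; adjusted p = 0.14), the most negative of the stalk genes. Rplp2 read 5.53, 5.47, 5.39 and 5.55 on the high-fat arrays and 6.13, 5.85, 5.89 and 5.70 on the control arrays. Control replicate 1 was the highest of its values, as it was for Rplp0 and Rplp1. The change was -0.40 for Rplp2 (SE 0.13; adjusted p = 0.20) and -0.44 for Rpl12 (SE 0.12; adjusted p = 0.13). Rpl12 had means of 3.99 ± 0.05 on high-fat and 4.43 ± 0.12 on control (SD, n = 4 per group). Both of its probes matched no RefSeq gene, so the signal rests on the array's own gene name.

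Rpl5 and Rpl11 carry the 5S ribosomal RNA into the large subunit, and when ribosome assembly is disturbed they can bind the p53 inhibitor Mdm2. Rpl5 read 4.34, 4.40, 4.29 and 4.25 on the high-fat arrays and 4.88, 4.77, 4.68 and 4.56 on the control arrays. Its groups did not overlap. The change of Rpl5 was -0.40 (SE 0.12; adjusted p = 0.17), and that of Rpl11, also without overlap, was -0.25 (SE 0.12; adjusted p = 0.36). The other tested probe of Rpl5, at a level of 3.32 against 4.52, gave -0.18, and that of Rpl11 gave -0.23.

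Rpl3 lies close to the site of peptide bond formation. It read 5.32, 5.65, 5.16 and 5.36 on the high-fat arrays and 6.0, 5.65, 5.72 and 5.67 on the control arrays. High-fat replicate 2 all but reached the lowest control value. The change of Rpl3 was -0.39 (SE 0.15; adjusted p = 0.27). Its other tested probe, at a level of 4.19 against 5.57, gave -0.23.

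Among other large-subunit genes, Rpl36a and Rpl37 had the most negative changes. Rpl36a, a protein near the exit site of transfer RNA, read 2.20, 2.49, 2.31 and 2.17 on the high-fat arrays and 3.21, 2.81, 2.88 and 2.72 on the control arrays. The groups did not overlap, and control replicate 1 was the highest array. The change of Rpl36a was -0.61 (SE 0.15, 95% interval -0.95 to -0.27; adjusted p = 0.10). Over its 4 tested probes the change ran from -0.61 to -0.15, the latter by a dim probe at a level of -6.0. Rpl37, a zinc-binding protein, had means of 0.84 ± 0.23 on high-fat and 1.45 ± 0.21 on control (SD, n = 4 per group) and a change of -0.61 (SE 0.17; adjusted p = 0.14). The accession of its probe now belongs to Rpl37l1 in the GRCr8 RefSeq table, so this signal cannot be assigned to Rpl37 alone. Rpl7a had a change of -0.37 (SE 0.12; adjusted p = 0.19).

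A few large-subunit genes had changes closer to 0. Rpl7 had a change of -0.03 (95% interval -0.33 to 0.27), Rpl15 of -0.006 (-0.40 to 0.39) and Rpl10, which joins the large subunit late and is needed for it to become active, of -0.12 (-0.45 to 0.20). Their intervals include the median change of the set. The other tested probe of Rpl7, at a level of 4.20 against 4.50, gave -0.26, and that of Rpl15 gave -0.07. The accessions of the Rpl10 probe match both Rpl10 and the pseudogene Rpl10-ps14, so the signal cannot be split between them. The brightest probe of Rpl15 was dim, at -3.35.

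In the small subunit, Rps12, a protein at the beak of its head, had the most negative change of all 83 genes. It read 4.70, 4.72, 4.58 and 4.44 on high-fat replicates 1 to 4 and 5.72, 5.48, 5.45 and 5.08 on control replicates 1 to 4. The 4 high-fat values lay within a narrow band, and the lowest control value, that of replicate 4, was above all of them. The change was -0.82, a 1.77-fold higher level in control livers (SE 0.16, 95% interval -1.19 to -0.46; adjusted p = 0.061 by limma). Of the 22 alternative settings with a test, 4 called it: quantile scaling (adjusted p = 0.042), normexp background correction (adjusted p = 0.022), testing only probes detected on all 8 arrays (adjusted p = 0.031) and a variance trend with intensity (adjusted p = 0.027). Over the 22 settings its adjusted p ran from 0.022 to 0.17.

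Rps12 was measured by 2 probes that overlap by 39 bases. They are shown because they differ at 3 bases in the overlap, in capitals. The first, which stands for the gene, lies at chr1:22266929-22266988 on rn4 (plus strand). The files place the second at chr1:22266951-22267415, a span longer than the probe.
Rps12, first probe: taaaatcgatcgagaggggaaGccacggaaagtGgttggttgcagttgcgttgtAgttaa
Rps12, second probe: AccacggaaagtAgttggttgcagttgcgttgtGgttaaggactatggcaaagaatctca

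The second probe of Rps12 gave a change of -0.64 (adjusted p = 0.080), at a mean level of 4.55 against 5.02 for the first. Both probes were thus negative, and neither passed the threshold. As they share most of their bases they are not independent measurements.

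Rps6, the protein that S6 kinases phosphorylate downstream of mTOR, read 4.12, 4.36, 4.33 and 4.28 on the high-fat arrays and 4.61, 4.61, 4.48 and 4.50 on the control arrays. The groups did not overlap. Its change was -0.28 (SE 0.12; adjusted p = 0.30), close to the median of the set. Rpsa, known also as a laminin receptor, had means of 2.45 ± 0.21 on high-fat and 2.96 ± 0.17 on control (SD, n = 4 per group), with a change of -0.50 (SE 0.15; adjusted p = 0.18). Rps15a had a change of -0.40 (SE 0.13; adjusted p = 0.21), and Rps27a, made as a fusion with ubiquitin, of -0.34 (SE 0.15; adjusted p = 0.32), both without overlap between the groups. Rps4x, whose gene in mammals lies on the X chromosome, had a change of -0.002 (95% interval -0.30 to 0.29) and overlapping groups. Rps26 and Rps2 had changes of -0.09 each. The other tested probe of Rps26, at a level of 0.47 against 3.92, gave -0.41, and the 4 probes of Rps2 ran from -0.10 to -0.05.

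Of the named copies, 6 genes carry the l suffix, and their median change was -0.10 with 4 negative and 2 positive, while all 77 other genes were negative. The copies were dimmer, with a median level of -1.10 against 4.51. Rps27l, which p53 is known to induce in human cells, read -4.34, -3.61, -3.39 and -3.64 on high-fat replicates 1 to 4 and -4.39, -4.39, -4.30 and -4.23 on control replicates 1 to 4. High-fat replicates 2 to 4 lay above every control value, and high-fat replicate 1 lay within the control range. Its change was 0.58 (SE 0.20, 95% interval 0.12 to 1.04; adjusted p = 0.23), and that of its partner Rps27 was -0.24 (95% interval -0.59 to 0.10). The intervals of the 2 genes do not overlap, and the difference between them was not tested. Rps27l has 1 probe, which matched no RefSeq gene.

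Of the other copies, none had an interval that lay wholly on one side of 0. Rpl22l1 had a change of -0.30 and its partner Rpl22 of -0.45 (adjusted p = 0.34 and adjusted p = 0.24). Rpl36al, which differs little from Rpl36a, had -0.19 against -0.61 for Rpl36a. Rpl7l1, which in human cells is a factor of large-subunit assembly, had 0.12 (95% interval -0.25 to 0.50). Rpl10l, a copy used in the testis of mice and men, had -0.002 (-0.67 to 0.67). Rpl3l, the form of Rpl3 known from striated muscle, had -0.34 with an interval from -1.49 to 0.81, and control replicate 1 read -3.64 where the other 7 arrays lay between -6.11 and -5.29. Without that array its change was 0.22. Of the 6 skeletal muscle markers, Ckm (0.58) and Mb (-0.02) were tested, neither past the threshold, and Acta1, Myh1, Myh2 and Tnnt3 had no probe that passed the detection filter.

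The members varied together across arrays. Over the 3403 pairs of the 83 genes, the median Pearson correlation across the 8 arrays was 0.79 and 93.1% of pairs were positive. Over the pairs of all tested genes the median was 0.002 and 50.2% were positive. All tested genes had a median level of -3.01 against 4.46 for the members, and other bright genes were not correlated separately. Taking out the diet, as deviations from the group means, left a median of 0.63 over the members and 0.003 over all genes. The points of every pair share the same 8 arrays, their RNA and their scaling, and the correlations are a description. Control replicate 1 held part of the pattern: without it the median over the members was 0.62, and without the 2 dimmest arrays 0.68. Within the subunits the median was 0.79 for the large and 0.80 for the small.

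**Figure D4:**
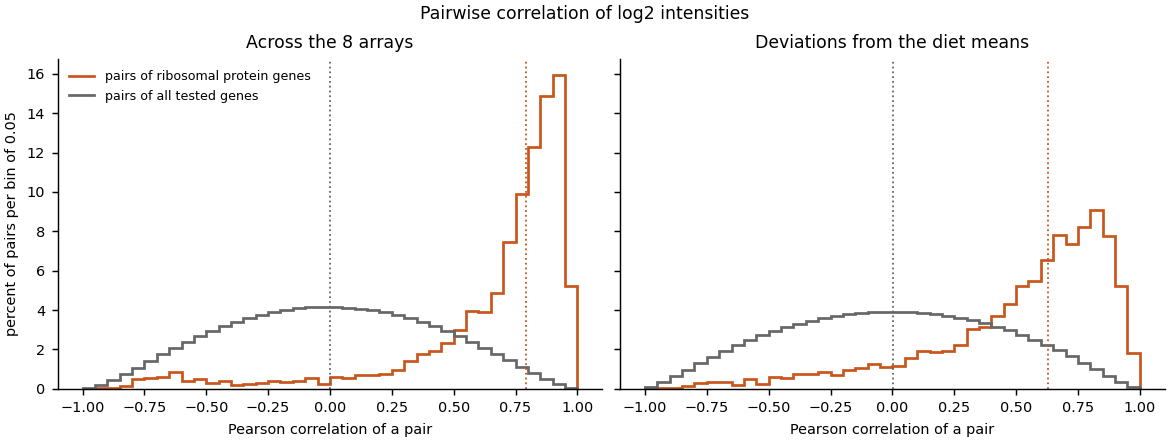
Percent of gene pairs (y axis) by Pearson correlation in bins of 0.05 (x axis), for pairs of ribosomal protein genes (orange) and of all tested genes (grey), across the 8 arrays (left) and after subtracting each diet's mean (right), with medians as dotted lines. The orange curves peak to the right with medians of 0.79 and 0.63, and the grey curves centre on 0.

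Set against the median of the other 82 members, the median correlation of a member was 0.91, and 64 members exceeded 0.8. Rps15a (0.99), Rps10 (0.99) and Rpl31 (0.99) followed the set most closely. Rps10 read 5.20, 5.34, 5.20 and 5.18 on the high-fat arrays and 5.90, 5.52, 5.61 and 5.38 on the control arrays. The order of the control arrays in Rps10 is the order in the set, with replicate 1 highest and replicate 4 lowest, except that replicates 2 and 3 trade places. Only 3 members ran below 0: Rps27l (-0.66), Rpl7l1 (-0.65) and Rps4x (-0.13).

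A feature the gene names do not use is the sequence at the transcription start. RefSeq windows on GRCr8 with 250 bases before and 50 bases after the start were matched by symbol to 66 of the 83 genes. A run of at least 6 pyrimidines that touches the 10 bases on either side of the start was present in 51 of the 66 (77.3%), against 28.3% of all 33469 windows. The same search for purines, which is the pyrimidine search on the other strand, gave 16.7% of the members and 32.3% of all windows. A C at the start followed by 4 pyrimidines was present in 24 members (36.4%), against 2.63% of all windows. The letters CTTTC within 25 bases of the start were present on the sense strand in 48.5% of the members and 6.39% of all windows, and on the other strand in 1.52% and 6.45%. These searches overlap, and a match is a run of letters and no proof of a working tract.

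The 30 bases around the annotated start (15 before and 15 after) are shown for the 3 genes that follow the set most closely, for the stalk gene Rplp1, for pairs of a gene and its second copy, and for Rps12, with the longest pyrimidine run of at least 6 in capitals. On GRCr8 they lie at chr9:49143096-49143125 (plus) for Rpl31, chr20:5700730-5700759 (minus) for Rps10, chr1:181860270-181860299 (minus) for Rps15a, chr8:71290858-71290887 (minus) for Rplp1, chr2:177964592-177964621 (minus) for Rps27, chr8:76443643-76443672 (plus) for Rps27l, chr5:168117946-168117975 (plus) for Rpl22, chr2:113683181-113683210 (plus) for Rpl22l1 and chr1:23500060-23500089 (plus) for Rps12.
Rpl31: ccacaatccctcgcgCCTTTCCTTTCCaac
Rps10: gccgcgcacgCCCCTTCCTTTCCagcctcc
Rps15a: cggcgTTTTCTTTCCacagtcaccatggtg
Rplp1: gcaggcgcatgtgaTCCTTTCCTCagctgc
Rps27: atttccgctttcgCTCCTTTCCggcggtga
Rps27l: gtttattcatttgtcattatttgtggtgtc
Rpl22: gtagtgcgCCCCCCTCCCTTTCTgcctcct
Rpl22l1: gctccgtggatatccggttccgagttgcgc
Rps12: gcacagaagcccagcagagcgcttaaatac

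The windows of both second copies shown hold no such run, nor does that of Rps12, the gene with the most negative change. Windows of the other second copies are not given here. Among windows not shown, Rpl3 and Rpl36a, which also have second copies, lack the run themselves, as does Rpl41. The window of Rpl10, another gene with a second copy, holds a run of 13. The 51 members with the run had a median change of -0.32 and the 15 without it -0.29, so the shift was of like size in both, and the 17 members with no window had -0.27. The annotated start need not be the one used in liver.

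Gene lists that work with the ribosome had medians closer to 0. The mitochondrial ribosomal proteins, which build the separate ribosome of mitochondria, had a median change of -0.14 over 72 tested genes, with 50 negative and 0 past the threshold. Transcripts linked to the ribosome under other names had a median of -0.16 over 9 genes, among them Fau, which encodes a small-subunit protein fused to a ubiquitin-like part (-0.39, adjusted p = 0.28), Gnb2l1, the scaffold protein of the small subunit known as Rack1 (-0.29, adjusted p = 0.33), and Rsl1d1 (-0.39, adjusted p = 0.20). Translation factors had a median of -0.03 over 35 genes, with Eif3k, an initiation factor subunit, at -0.39 and the elongation factor subunit Eef1b2 at -0.28. None passed the threshold in these lists.

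Ribosome biogenesis had a median of -0.06 over 29 genes, and its most negative genes were Ebna1bp2 (-0.54, adjusted p = 0.099), Nop16 (-0.47, adjusted p = 0.11) and Fbl, the methyltransferase of ribosomal RNA called fibrillarin (-0.35, adjusted p = 0.23). RNA polymerase I and its factors, which make ribosomal RNA, stood at -0.002 over 13 genes. Genes of mTOR and S6 kinase signalling had a median of 0.05 over 17 tested genes. Among them Rragd, a GTPase that signals amino acids to mTOR, stood at 0.89 (adjusted p = 0.067). Its probe was dim, with means of -6.09 on high-fat and -6.97 on control. Eif4ebp1, the translation inhibitor that mTOR inactivates, stood at -0.30 (adjusted p = 0.26). Genes of the p53 response to ribosomal stress had 0.10 over 10. None of these genes passed the threshold.

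**Figure D5:**
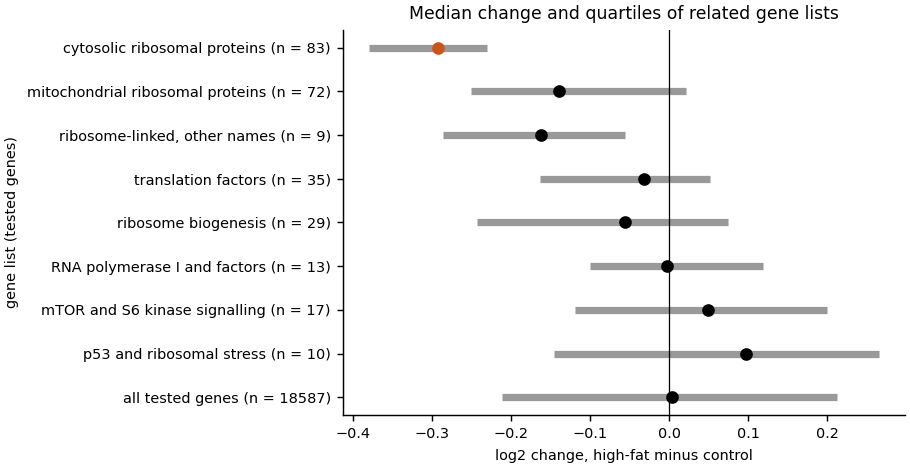
Median log2 change, high-fat minus control (points), and quartiles (bars) of the cytosolic ribosomal proteins, of related gene lists and of all tested genes, with the number of tested genes in brackets. The ribosomal proteins are the only list shown whose upper quartile (-0.23) lies below the medians of all the other lists.

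Markers of other cell types were looked at too, and of these only Cd3g passed the threshold. The median level was -5.98 for the lymphocyte and -3.95 for the cholangiocyte markers, below the -3.01 of all tested genes. Of the lymphocyte markers, 6 of 7 were tested (Ms4a1 was not), 4 were negative, and their summed level ran from -1.96 to -1.53 on the high-fat arrays and from -1.25 to -0.40 on the control arrays, with Cd3g, a T-cell receptor chain, at -1.44 (adjusted p = 0.042 by limma). All 6 macrophage markers on the array were negative, with summed levels of 3.25 to 4.09 against 4.27 to 4.64. Within slide row 1 their median change was -0.02 with 3 negative, and within row 2 it was -0.48 with 6 negative. Of the cholangiocyte markers, 3 of 4 were tested (Sox9 was not), all 3 negative, with summed levels of -0.93 to -0.46 against -0.40 to 0.13. Of the erythroid markers, 3 of 4 were positive, and their summed level of 6.16 to 6.84 met that of the control arrays, 4.80 to 6.17. The part of these cells in the lower ribosomal protein signal was not tested.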

How the data were processed

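Expression was measured in 8 rat liver RNA samples, 4 per diet, grouped and numbered by their titles. Per the labels' protocols, 500 ng of TRIzol RNA, primed with oligo-dT, was turned into Cy3-labelled cRNA. Per the file headers, Agilent Feature Extraction 10.7.3.1 gave each spot's background-subtracted intensity. The authors' deposited table holds log2 values. Its column medians ran from -3.21 to -3.10, and 98.47% or more of each column fell within 0.05 of the scanner values scaled to the 75th percentile of all probes, so it is log2, not centred per probe, and higher for brighter spots. It was used as an alternative.

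Control and flagged spots were left out, spots of a probe averaged, and each array's log2 signal scaled to the 75th percentile of probes detected on all 8 arrays (47.9%), detected meaning well above background in the scanner's flag. Probes detected on 4 or more arrays (31535, under 18587 gene names) were fitted by limma 3.58.1 (lmFit, eBayes; R 4.3.3). P-values were adjusted by Benjamini and Hochberg across every tested probe, with 0.05 as the threshold. The fit was tested on simulated data. In the whole series 163 genes passed, 65 higher and 98 lower.

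The members, lists and tests were chosen with earlier results of these data known. Named genes were Rplp0 to Rplp2, Rps6, Rpl3, the 10 smallest p, the 5 brightest and 5 dimmest, second copies with their partners, and the 3 genes closest to and farthest from the set's median. Genes of a shared role (Rpl11, Rps27a) and Rps2 and Rps26 were added after their values were seen. Accessions of 62 representative probes matched 1 RefSeq gene, 1 matched 2 and 20 matched none. Ribosomal protein genes have many processed pseudogenes, and probes cannot tell near-identical copies apart. Probe coordinates are rn4, as the files give them, and start windows are RefSeq's on GRCr8.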

Additional observations from a re-analysis of the deposited data

Results flagged for a closer look

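Of 66 sets of 4 values, that is, a named gene in 1 diet group or an array summary, 6 held a sample whose gap to the nearest other was large for the range of the group, by Dixon's criterion at 95%. Chance gives about 1 in 20. In Rpl37, high-fat replicate 4 read 0.49 where the other high-fat arrays read 0.93 to 0.99, and control replicate 1 read 1.76 against 1.30 to 1.36. In Rpl3l, control replicate 1 read -3.64 against -6.11 to -5.70 in the other control arrays. In Rpl22l1, control replicate 3 read 1.14 against 1.40 to 1.44. In Rps10, high-fat replicate 2 read 5.34 against 5.18 to 5.20. In Rps4x, high-fat replicate 4 read 2.44 against 2.62 to 2.65.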

How the results depend on the processing

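The median change of the ribosomal protein genes stayed negative under every setting tried, from -0.37 to -0.21, and 77 to 81 of the 83 genes had a negative change. Leaving out 1 array gave -0.34 to -0.22. The count of members past the threshold was 0, and 1 (Rps12) with quantile scaling, normexp, the filter on all 8 arrays, a variance trend and an adjusted p under 0.1. The counts of members with a negative change, at an unadjusted p under 0.05 and without overlap were set after the data were seen. The count at an unadjusted p, 36, was 20 with the replicate block (6.98% of all tested genes), 25 without the filter (5.58%), 12 without the 2 dimmest arrays (7.15%), 42 with the filter on all 8 arrays (10.9%) and 53 with the variance trend (9.21%), and leaving out 1 array gave 15 to 36. Without overlap, 37 members became 30 with the deposited table (6.32% of all tested genes) and 31 with the 75th percentile of all probes (6.43%). The count was 31 with scaling to the median (6.41%), 33 with normexp (5.62%), 45 with quantile scaling (6.32%) and 46 without the 2 dimmest arrays (11.2%). Leaving out 1 array gave 37 to 54 (7.66% to 9.08%). Within slide rows 1 and 2 it was 66 and 67, where each group has 2 arrays and 22.3% and 22.9% of all tested genes met the condition.

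Whole-series counts moved more. The 163 genes (286 probes) past the threshold became 254 genes with normexp, 5 (10 probes) without the filter, 331 (529) detected on all 8 arrays, 326 (532) with the trend, 98 (171) with slide row as a block, 14 (25) without the 2 dimmest arrays, 504 (836) at an adjusted p under 0.1, and 16 to 91 genes (23 to 154 probes) with 1 array left out. With the replicate block 1 gene (1 probe) passed. Same-numbered arrays correlated at -0.12, 0.26, 0.23 and 0.01 in their deviations from the group means. Arrays of different numbers correlated at -0.34 to 0.29. With so few arrays these values cannot tell whether the numbers pair the samples.

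Of 716 comparisons of 30 named genes with an alternative, 33 had the opposite sign, 7 of them within a slide row. They fell in Rpl10, Rpl10l, Rpl15, Rpl3l, Rpl7, Rpl7l1 and Rps4x, and of these Rpl3l had a change of -0.34 in the main setting. Rpl7 read 0.0064 (quantile), 0.022 (normexp), 0.0048 (array weights) and 0.041 (without the 2 dimmest arrays), Rps4x 0.032 (quantile) and 0.022 (normexp), Rpl10l 0.048 (mean of probes), 0.14 (array weights) and 0.30 (without the 2 dimmest), and Rpl10 0.0059, Rpl3l 0.36 and Rpl7l1 -0.00032 without the 2 dimmest. Within a row, Rpl15 (0.18), Rpl7 (0.020) and Rps4x (0.17) turned in row 1, and Rpl10 (0.11), Rpl10l (0.58), Rpl3l (0.22) and Rpl7l1 (-0.10) in row 2. With 1 array left out the ranges were -0.23 to 0.19 for Rpl10l, -0.13 to 0.056 for Rpl15, -0.60 to 0.22 for Rpl3l, -0.11 to 0.036 for Rpl7 and -0.070 to 0.047 for Rps4x. The median level depends on the scale: 6.58 for the 75th percentile of all probes, 6.44 for the median, 6.59 in the deposited table and 3.82 for the mean of a gene's probes. The median pairwise correlation was 0.70 after quantile scaling and 0.62 to 0.83 with 1 array left out. The cause of these differences was not tested. Without the filter more probes shared both the variance fit and the adjustment, and the left-out fits had fewer arrays. Cross-hybridisation between copies was not tested.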
